A study of Mus musculus with 24 samples.

Results

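Collagens are the main fibrous proteins of the extracellular matrix. The collagen genes were taken as every gene whose symbol is Col, a number, the letter a and a number, which gave 44 of the 16118 genes in the deposited table. They were divided by the structure their chains form: 11 fibrillar collagens, 6 basement membrane collagens (the chains of type IV collagen) and 27 others. Of the 44, 43 passed the filter on low counts and were tested; Col19a1, with at most 13 reads in a library, did not pass. Expression was measured by RNA-seq of poly(A) RNA from inguinal white adipose tissue, the subcutaneous fat pad of the groin, with 1 library from each of 24 mice. Males and females were taken at postnatal day 21 (p21), or at day 28 (p28) after either of 2 regimes: standard weaning (SW), in which pups left the mother on day 21, and delayed weaning (DW), in which they stayed with her. Each of the 6 groups held 4 animals, and the sources used here name no agent, strain or genotype. The groups allow the depot to be followed over this week in each sex, and pups that left the mother to be set against pups that stayed.

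Collagen chains wind in groups into a triple helix that only forms after enzymes in the endoplasmic reticulum have hydroxylated them, and the fibrillar types are trimmed outside the cell before they assemble. Fibroblasts and adipocyte progenitors make most of the type I, III, V and VI collagen of fat, in which a net of type VI collagen surrounds each adipocyte. Type IV collagen forms the sheet-like basement membranes beneath endothelium and epithelium and around adipocytes. In a growing fat pad these sheets and fibres are laid down as vessels and adipocytes are added.

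Values are the authors' normalised values, which are reads divided by a factor of each library, and n is 4 animals a group wherever a mean ± SD is given. The libraries held 57600711 to 302145813 reads in the listed genes, and collagen genes took 0.872% to 2.15% of them. All 6 adipocyte markers had reads in every library. Several libraries stood apart. p21 male 53 had reads in 14054 genes, against 15859 to 15977 in the other p21 males, and SW male 84 in 15497. In DW females 82 and 83 the values of genes fell with the GC content of their transcripts (correlations across genes of -0.41 and -0.59, against 0.37 and 0.24 in DW females 76 and 77), and the median transcript GC was 55.1% for the collagen genes and 49.9% for all genes. p21 male 37 had a correlation of -0.47, and SW female 81 the highest of all libraries, 0.43. Calls that rest on animals 53, 84, 82 and 83 are given with and without them.

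Fibrillar collagen transcripts dominated. Levels are given per kb of exon, in the authors' unit. The length was that of all annotated exons of a gene joined, 12426 bases for Col1a2 and 6563 for Col1a1. Levels set between genes therefore depend on the annotation. Before the division Col1a2 (median 1458) lay above Col4a1 (median 1257). Per kb, Col3a1 stood at 398 ± 105 and Col1a1 at 323 ± 118 (mean ± SD over the 24 animals). Col3a1 encodes type III collagen, the fine fibril of loose connective tissue, and Col1a1 a chain of type I, the main fibril of the body. The type IV chains Col4a1 (179.9 ± 56.2) and Col4a2 (165 ± 55.4) came next, ahead of Col1a2 (119.7 ± 32.4), the partner chain of Col1a1, and Col6a1 (109 ± 24.5), a chain of the type VI net. Col3a1 and Col1a1, Col4a1 and Col4a2, Col1a2 and Col6a1, and Col5a3 and Col15a1 are neighbours in this order whose means differed by less than either SD. The first 3 genes made up 53.6% of the summed level per kb of all 44, and the first 8, which also include Col5a3 and Col15a1, 86.5%. At the other end, 9 genes had a mean value under 1 in the deposited unit, among them Col2a1 and Col10a1, which mark cartilage.

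**Figure D1:**
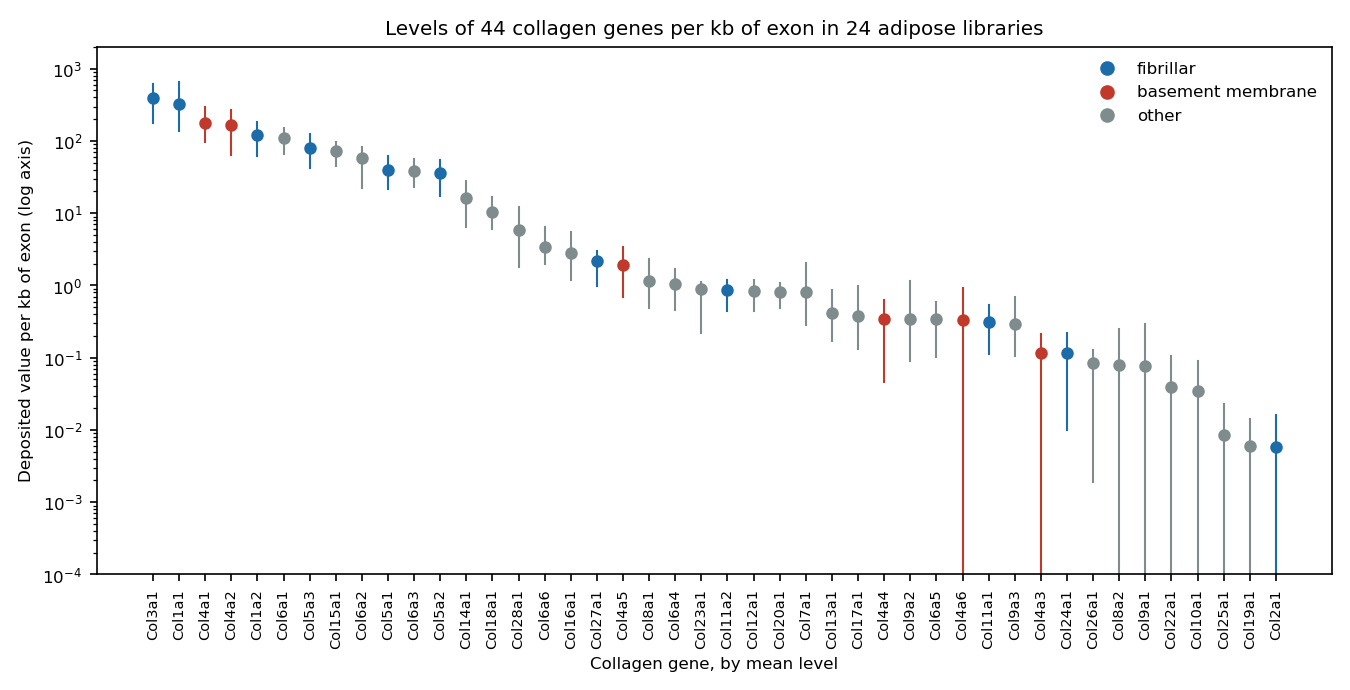
Level of each of the 44 collagen genes, as deposited value per kb of exon on a log axis, in order of the mean. Points are means over 24 animals and lines run from the lowest to the highest animal, to the bottom of the axis where an animal had no read. Fibrillar genes (blue) and Col4a1 and Col4a2 (red) take the first 5 places.

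Divided by class, fibrillar collagens held 59.6 ± 4.94% of the summed level per kb, basement membrane collagens 20.7 ± 4.23% and the others 19.6 ± 2.03% (mean ± SD, 24 animals). The basement membrane share was 17.2 ± 6.45% in p21 males, 22.2 ± 3.60% in SW males and 24.5 ± 2.60% in DW males. In females it was 18.8 ± 3.70% at p21, 22.3 ± 2.18% after SW and 19.4 ± 3.00% after DW, where it was 23.0% and 20.4% in animals 76 and 77 and 18.2% and 16.0% in animals 82 and 83. The animals of p21 and SW males overlapped, from 11.0% to 24.0% and from 18.9% to 27.3%. These shares are sums over the chosen genes, depend on the exon lengths used and were not tested. In bulk tissue, fewer cells of a type and less RNA per cell cannot be told apart.

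In males, no collagen gene passed the test between delayed and standard weaning, while 32 of the 43 had a higher mean log2 value after delayed weaning. Col4a1 was 1989.6, 2216, 1799 and 1940.1 in the 4 DW males and 1508, 1178, 1348 and 1256 in the 4 SW males. Every DW male lay above every SW male. The difference was 0.59 (SE 0.24, limma adjusted p 0.593), on the log2(value + 1) scale used for all differences here. The added 1 narrows the differences of genes with values near or under 1, so sizes are not comparable between low and high genes. Col6a3, the long chain of type VI collagen and the source of the adipose-derived peptide endotrophin, was 609, 524, 497 and 547 in DW and 393, 355, 295 and 356 in SW males, again without overlap, a difference of 0.64 (SE 0.20, limma adjusted p 0.307). Col28a1, a minor collagen with von Willebrand domains, was 54.7, 40.9, 51.5 and 59.6 in DW and 36.5, 24.8, 37.6 and 22.9 in SW males, and here too the groups were apart, by 0.76 (SE 0.25, limma adjusted p 0.342).

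The same separation appeared across classes. Of the 43 genes, 13 had all 4 DW males above all 4 SW males and 0 had them all below, where 5.34% and 3.4% of the 16005 tested genes did so. The 13 were the fibrillar Col5a2, Col5a3 and Col11a1, the basement membrane Col4a1 and Col4a2, the type VI chains Col6a1, Col6a2 and Col6a3, the fibril-associated Col12a1 and Col14a1, the multiplexins Col15a1 and Col18a1, whose proteins lie in basement membranes and carry sugar chains, and Col28a1. Col5a3, a chain of the type V collagen that helps start fibrils, was 666, 864, 635 and 710.4 in DW and 513, 446, 504 and 537 in SW males, and Col15a1 was 533, 590.1, 486 and 552 and 441, 407, 414 and 386. Among the most abundant fibrillar genes the animals overlapped: Col3a1 was 6106, 5089.9, 4131 and 4306 in DW and 4363, 3484, 2832 and 4177 in SW males. Col1a1 was 3294, 2155, 1736 and 2260.4 and 2576, 2312, 1257 and 1791, and Col1a2 2311, 1649, 1394 and 1602 and 1668, 1471, 908 and 1361.

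The median difference was 0.37 for the 11 fibrillar genes, with 9 positive, 0.039 for the 6 basement membrane genes and 0.10 for the 26 others, against 0.0037 for all genes tested. Limma called 0 of the 43 higher and 0 lower, with 0.231% and 0.025% of all genes called. At an unadjusted p under 0.05 there were 8 collagen genes, all higher, where 4.1% of all genes were, and edgeR and DESeq2 on the recovered reads also called 0. With only the 2 groups in the fit 1 gene, Col6a3, was called. The labels number most p28 mice from 73 to 80 or from 81 to 87 (SW male 124 belongs to neither range). Within the first run of numbers (2 DW and 1 SW males) 33 of the 43 differences were positive and within the second (2 and 2) 32 were, with Col4a1 at 0.48 and 0.57 and Col6a3 at 0.52 and 0.69. Without SW male 84 and p21 male 53, 24 of the 43 were positive and the basement membrane median was -0.11. The share of all genes with a positive difference is not given here for the runs or for this fit. The 5 endothelial markers summed to 1663 to 1814 in DW and 1156 to 1756 in SW males, and the 10 fibroblast and progenitor markers to 1447 to 1709 and 1244 to 1709. The 5 mural cell markers summed to 1045 to 1181 and 849 to 1063. As a mean log2(value + 1), the mural list was 7.03 to 7.19 in DW and 6.84 to 6.96 in SW males, without overlap. The part of these cell types in the collagen differences was not tested.

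**Figure D2:**
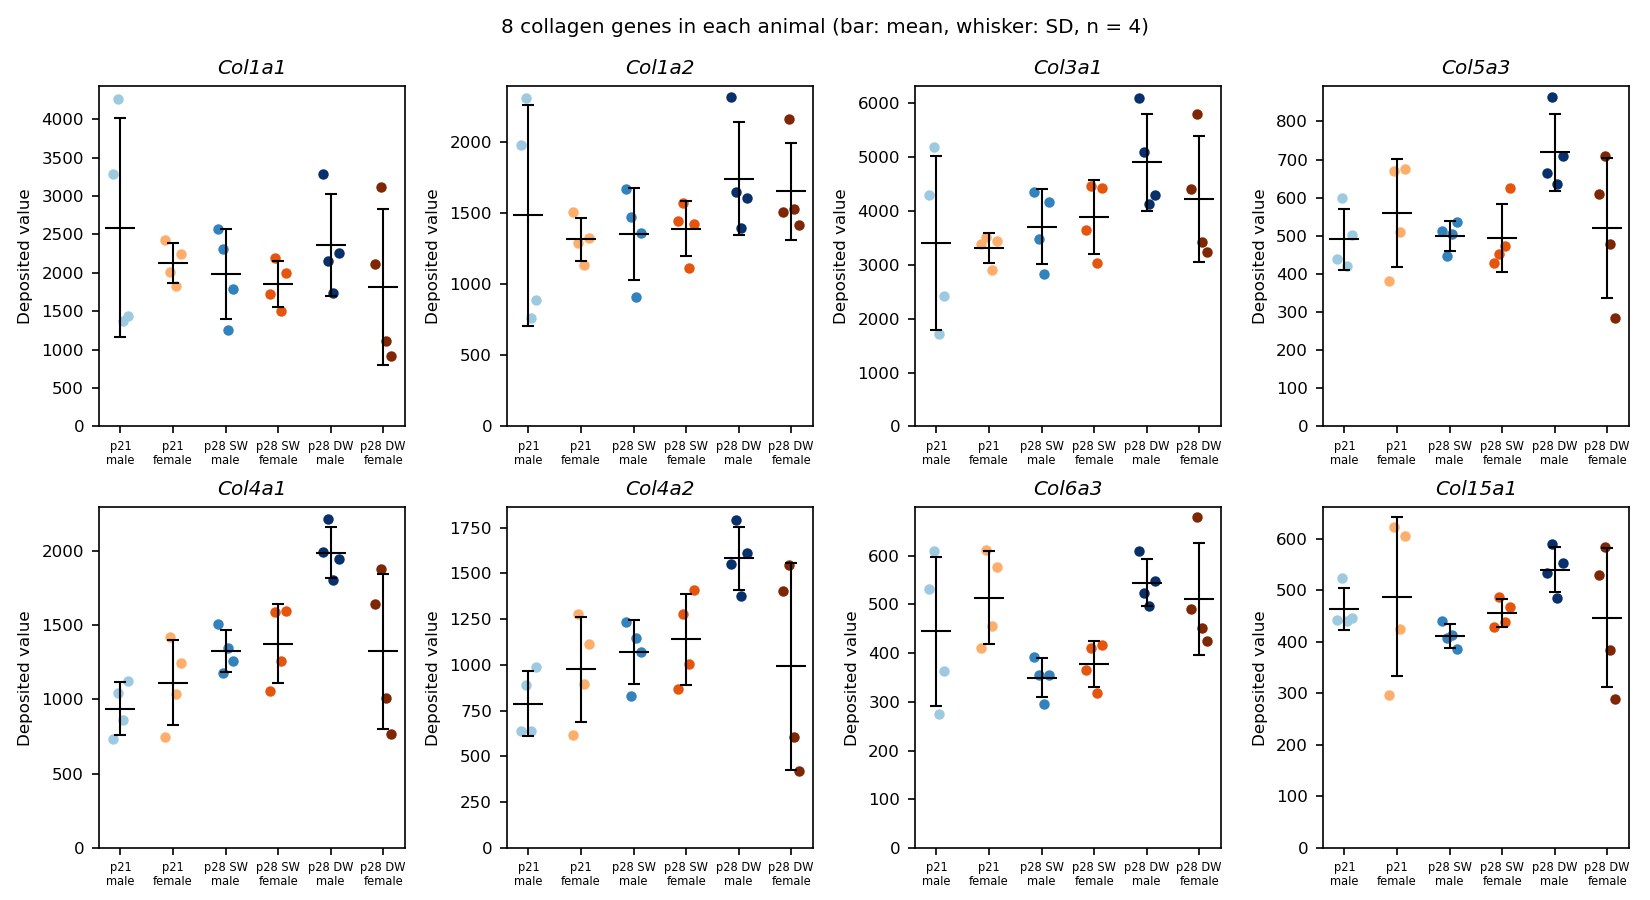
Deposited values of 8 collagen genes in each of the 24 animals, by group (points), with the mean (bar) and SD (whisker, n = 4). DW males lie above SW males without overlap in Col4a1, Col4a2, Col5a3, Col6a3 and Col15a1, and DW females fall into a high and a low pair in Col1a1 and Col4a2.

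In collagen genes the DW females split into 2 pairs. Col1a1 was 2110.0, 3118, 1111 and 915 in DW females 76, 77, 82 and 83, against 1727, 2189.8, 1504 and 1998 in SW females, so that animals 82 and 83 were below every SW female. Col4a2 was 1402, 1547, 604 and 418 in DW and 870.1, 1277, 1002 and 1411 in SW females, with the same order. Col1a2, whose transcript has a GC content of 55.7%, was 1505, 2157, 1529 and 1413 in DW and 1445, 1572, 1115 and 1419 in SW females and showed no such gap. Of the 43 tested genes, 38 had both animal 82 and animal 83 below animals 76 and 77, and 0 had them both above, where 39.4% and 33.7% of all tested genes did, so that these libraries stood apart in genes of both directions and not in collagens alone. The median transcript GC was 56.3% in those 38 and 50.4% in the other 5. Col16a1, which bridges fibrils and other matrix proteins, differed most between the pairs, at 27.1 and 35.9 in animals 76 and 77 against 9.44 and 8.12 in animals 82 and 83. Col8a1, with a GC content of 46.8%, was 11.1, 12.7, 11.6 and 18.3 in the same order and did not split that way. Col28a1 (49.55%) and Col11a1 (47.96%) did, with log2 differences between the pairs of -1.10 and -0.91, while that of Col26a1 (60.48%) was -0.20. Col26a1 was only 1.03, 0.855, 0.648 and 0.727 in animals 76, 77, 82 and 83, and at such values the added 1 narrows the difference. Scores of most marker lists, the mean log2(value + 1), were also lower in animals 82 and 83. Endothelium was at 7.62 and 7.62 in animals 76 and 77 and 7.15 and 6.96 in animals 82 and 83. In the same order mural cells were at 7.07, 7.20, 6.49 and 6.32 and mammary epithelium at 4.40, 4.39, 3.41 and 3.43. Schwann cells were at 4.97, 4.95, 4.31 and 4.31. The adipocyte, fibroblast and cartilage lists were lower too. The muscle and lymph node lists overlapped, and the keratinocyte list was higher. The part of GC content and of cell types in the split was not tested.

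**Figure D3:**
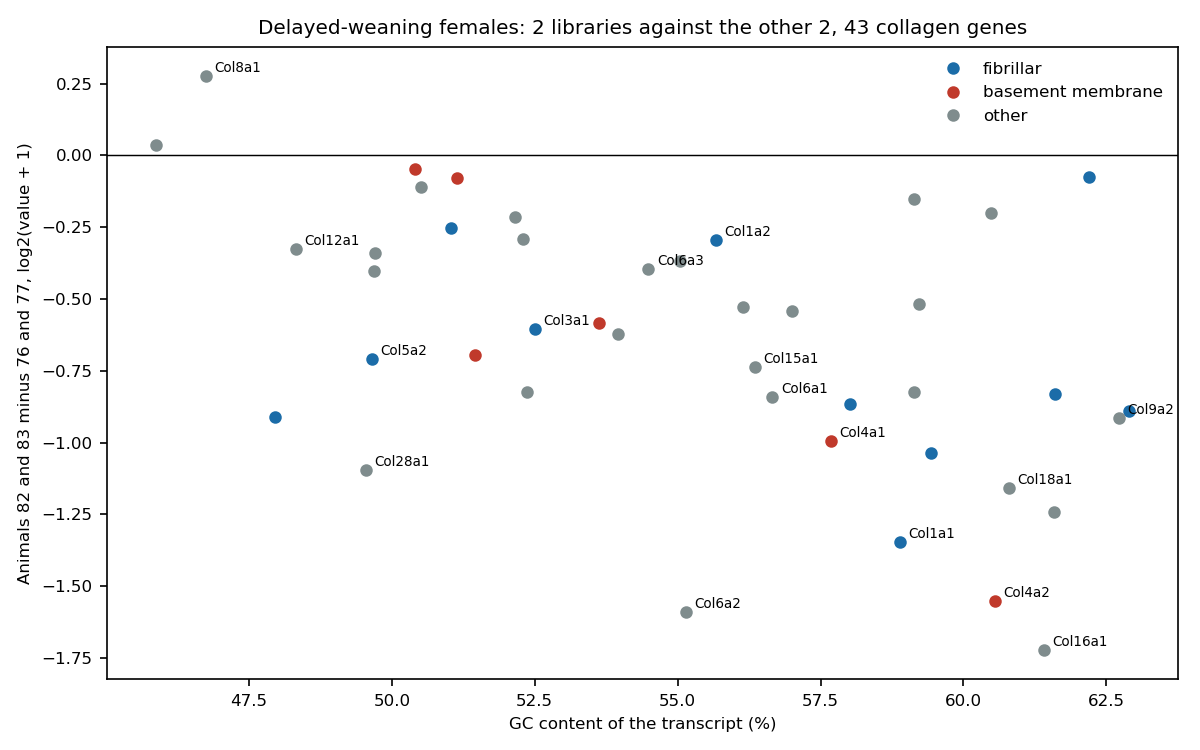
Difference between DW females 82 and 83 and DW females 76 and 77 (mean log2(value + 1), vertical axis) for 43 collagen genes against the GC content of their transcripts (horizontal axis, %). Colours mark the 3 classes. Most points lie under 0, Col16a1, Col6a2 and Col4a2 lowest, while Col8a1 lies above it.

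With all 4 DW females, 15 of the 43 genes were higher after delayed than after standard weaning in females, with a median of -0.086 (-0.086 fibrillar, -0.037 basement membrane, -0.096 others, -0.025 over all genes). Without animals 82 and 83, a comparison added after the data were seen, 31 of the 43 were higher and the medians were 0.37 for fibrillar, 0.29 for basement membrane and 0.13 for other collagens. Limma then called 0. The 2 runs of animal numbers gave opposite signs: in run 73 to 80 (2 DW and 3 SW females) 32 of the 43 differences were positive, and in run 81 to 87, which holds animals 82 and 83 and 1 SW female, 3 were. That SW female, animal 81, had a GC correlation of 0.43, against -0.41 and -0.59 in animals 82 and 83. The share of all genes with a positive difference is not given here for the runs or for the fit without animals 82 and 83. Col1a1 differed by 0.52 in the first run and -0.99 in the second, and Col4a1 by 0.45 and -0.86. Col6a3 was the 1 gene with every DW female above every SW female, at 491, 679, 451 and 426 against 366, 410.3, 317 and 417 (all genes, 2.27%), a difference of 0.42 (SE 0.20, limma adjusted p 0.258).

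Type IX collagen genes stood lower in females after DW than after SW. Col9a1, Col9a2 and Col9a3 encode the chains of a collagen that decorates fibrils and is best known from cartilage, and all 3 were called lower than in SW females of the same age, the only calls among the 43. Limma called 0 collagen genes higher and 3 lower, with 0.462% and 0.812% of all genes called. Col9a2 was 2.03, 1.88, 0.514 and 0.623 in DW and 2.56, 2.74, 3.13 and 3.52 in SW females, a difference of -0.88 (SE 0.17, limma adjusted p 0.0104). Col9a3 was 1.54, 1.57, 0.878 and 0.699 and 2.28, 2.05, 2.49 and 2.67, a difference of -0.66 (SE 0.12, limma adjusted p 0.00724), and Col9a1 0.788, 0.931, 0.546 and 0.661 and 1.49, 1.03, 1.13 and 1.31, a difference of -0.37 (SE 0.071, limma adjusted p 0.00918). In each of the 3 genes all 4 DW females were below all 4 SW females, where 3.52% of all genes were. These are low values, of 65 to 249 reads a library for Col9a2 in DW and 307 to 427 in SW females. Both runs gave negative differences, for Col9a2 -0.36 and -1.53. EdgeR called 0 of the 3, DESeq2 called Col9a2 and Col9a3, a pseudocount of 0.1 gave 0 calls, and so did leaving out animals 82 and 83, which brought the differences to -0.27 for Col9a1, -0.42 for Col9a2 and -0.40 for Col9a3. Without animal 82 alone, or 83 alone, only Col9a3 was called. Without animal 77, 5 genes were called, Col7a1 and Col20a1 as well. With muscle, mammary and lymph node marker scores as covariates 0 were called, and likewise with only the groups compared in the fit. The 7 skeletal muscle markers summed to 3.29 to 1741 in DW and 297 to 2713 in SW females.

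The promoter windows of the type IX genes are shown because the 3 genes were called together. They come from RefSeq (GRCm38.p6, 250 bases before to 50 after a gene's start), which had a window for 35 of the 44 collagen genes. Col9a1 has 2 starts there, which a count per gene does not separate, and Col9a3 had no window. Capitals mark the motifs searched on both strands: the CCAAT box (CCAAT), the GC box (GGGCGG), the TATA box (TATAAA) and 2 forms of the HMG box bound by Sox factors (ACAATG and ACAAAG).
Col9a1, first start, chr1:24177360-24177659 (plus strand): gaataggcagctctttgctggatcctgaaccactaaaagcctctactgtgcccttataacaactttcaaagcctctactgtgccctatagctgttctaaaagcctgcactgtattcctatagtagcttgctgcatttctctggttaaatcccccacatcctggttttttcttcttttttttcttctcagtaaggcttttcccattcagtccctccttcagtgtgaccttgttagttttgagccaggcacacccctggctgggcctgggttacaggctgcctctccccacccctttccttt
Col9a1, second start, chr1:24194953-24195252 (plus strand): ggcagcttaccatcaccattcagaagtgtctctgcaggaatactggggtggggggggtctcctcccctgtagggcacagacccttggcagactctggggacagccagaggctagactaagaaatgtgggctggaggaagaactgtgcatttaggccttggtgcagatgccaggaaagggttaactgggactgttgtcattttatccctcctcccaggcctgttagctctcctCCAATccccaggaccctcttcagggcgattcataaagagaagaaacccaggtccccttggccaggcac
Col9a2, chr4:121039316-121039615 (plus strand): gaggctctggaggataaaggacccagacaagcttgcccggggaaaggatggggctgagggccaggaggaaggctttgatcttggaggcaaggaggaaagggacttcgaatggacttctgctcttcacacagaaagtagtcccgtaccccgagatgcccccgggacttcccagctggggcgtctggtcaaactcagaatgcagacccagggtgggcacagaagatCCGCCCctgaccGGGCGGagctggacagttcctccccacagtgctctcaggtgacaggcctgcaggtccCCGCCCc
The first Col9a1 window held none of these motifs, the second 1 CCAAT box, and the Col9a2 window 3 GC boxes. Among all 32851 windows of this length, 37.4% held a CCAAT box, 35.7% a GC box, 13.6% a TATA box, 12.6% ACAATG and 18.7% ACAAAG. Among the 38 windows of the 35 collagen genes the shares were 34.2%, 60.5%, 13.2%, 2.63% and 13.2%. A match is a description of the sequence only.

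Whether the difference between DW and SW animals depended on sex was tested as an interaction. Limma called 0 of the 43 higher and 0 lower, with 0% and 0.0187% of all genes called, and edgeR and DESeq2 called 0. At an unadjusted p under 0.05 there were 10 collagen genes, all with a more negative difference in females, where 3.74% of all genes were. They include Col9a3 at -0.70 (SE 0.17, limma adjusted p 0.328), Col28a1 at -1.06 (SE 0.35, limma adjusted p 0.802) and Col4a2 at -0.95 (SE 0.44, limma adjusted p 0.802). In each of these genes DW females 82 and 83 were below animals 76 and 77 and below every SW female. Without animals 82 and 83 limma again called 0. Since the fit with all animals also called 0, that count cannot show whether the differences rest on animals 82 and 83. The sizes without these animals are not given here.

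From p21 to p28 under standard weaning, the collagens that rose were minor ones, while the main fibrillar chains did not pass the test in either sex. This comparison shares the SW animals with the one on weaning. In males limma called 4 of the 43 higher and 0 lower, with 6.9% and 4.97% of all genes called. Col28a1 rose from 15.8, 11.9, 8.74 and 13.8 to 36.5, 24.8, 37.6 and 22.9, by 1.21 (SE 0.25, limma adjusted p 0.00301). Col6a5, a type VI chain that can take the place of the Col6a3 chain, rose from 2.20, 1.36, 1.34 and 0.955 to 3.82, 5.28, 3.11 and 5.62, by 1.14 (SE 0.21, limma adjusted p 0.00147). In both genes every SW male lay above every p21 male. Col8a1, a chain of the short-chain collagen of vessel walls and the cornea, rose by 0.62 (SE 0.17, limma adjusted p 0.0195) without overlap, and Col4a4, a type IV chain of specialised membranes such as that of the kidney, by 1.10 (SE 0.27, limma adjusted p 0.0103) with 1 p21 male within the SW range. Without p21 male 53, Col8a1 was no longer called, and without SW male 85 neither. Without both 53 and SW male 84, Col28a1 and Col6a5 were called. Skeletal muscle markers moved with this comparison: all 7 were in the table, none was at 0 in every animal of a group, and they summed to 3.13 to 512 in p21 and 417 to 4679.7 in SW males, and to 4.00 to 1215 in p21 and 297 to 2713 in SW females. With the muscle, mammary and lymph node scores as covariates, Col4a4 and Col6a5 were called in males and Col8a1, Col9a1 and Col9a3 in females.

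SW females showed 8 collagen genes higher than at p21 and 0 lower, with 7.39% and 4.23% of all genes called. Type IX collagen led: Col9a1 was 0.136, 0.348, 0.222 and 0.284 at p21 and 1.49, 1.03, 1.13 and 1.31 at p28, a rise of 0.84 (SE 0.071, limma adjusted p 6.43e-08). Col9a2 rose from 0.768, 0.968, 0.520 and 1.11 to 2.56, 2.74, 3.13 and 3.52, by 1.12 (SE 0.17, limma adjusted p 0.000122), and Col9a3 by 0.73 (SE 0.12, limma adjusted p 0.000269), again without overlap. Col8a1 rose from 5.37, 8.15, 4.23 and 7.10 to 14.5, 14.4, 12.4 and 15.8, by 1.11 (SE 0.17, limma adjusted p 0.000112), and Col28a1 from 16.7, 19.3, 12.4 and 13.8 to 30.1, 38.0, 29.5 and 31.7, by 1.02 (SE 0.25, limma adjusted p 0.00745). The other 3 belong to epithelial attachment: Col17a1, a transmembrane collagen of hemidesmosomes, rose by 0.89 (SE 0.21, limma adjusted p 0.00590), Col7a1, which forms anchoring fibrils, by 1.01 (SE 0.30, limma adjusted p 0.0265), and Col4a6, a type IV chain of epithelial membranes, by 1.02 (SE 0.33, limma adjusted p 0.0490). Of these only Col7a1 had SW and p21 females apart. Col4a6 was 2.06, 2.85, 0.704 and 5.60 at p21 and 7.27, 3.23, 7.20 and 6.88 at p28. It was not called in the fits without p21 female 30, 36 or 55 or SW female 73, 75 or 81, and Col7a1 was not called without p21 female 30 or 55 or SW female 75 or 81.

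By class, the median from p21 to p28 SW was -0.0044 in males and -0.15 in females for fibrillar genes, 0.43 and 0.26 for basement membrane genes and 0.059 and 0.20 for the others, with 0.015 and 0.012 over all genes. All 6 basement membrane genes had positive differences in each sex. Col1a1 was 3287, 4261, 1379 and 1434 in p21 males, so that animals 37 and 38 lay above every SW male but the groups overlapped, and 2426, 2010.0, 1829 and 2244 in p21 females.

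**Figure D4:**
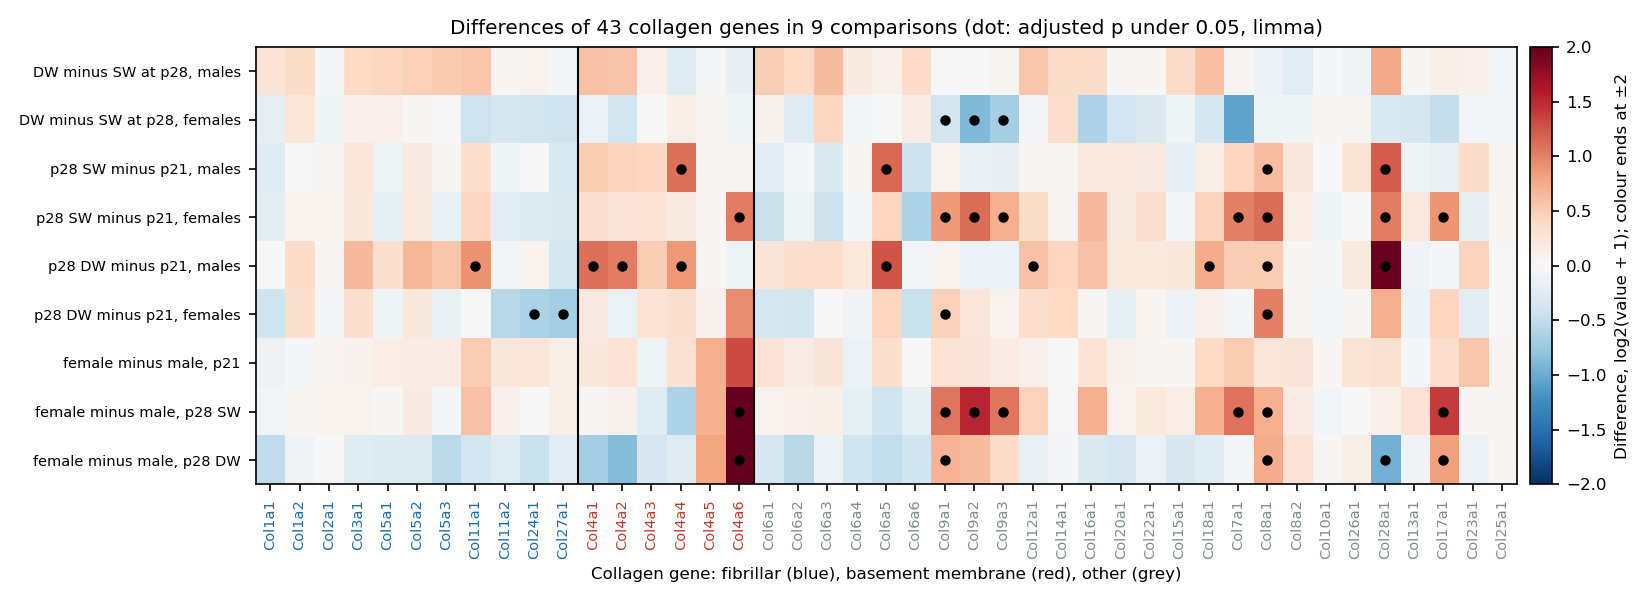
Differences in log2(value + 1) of 43 collagen genes (horizontal axis, by class) in 9 comparisons (vertical axis). Red is higher in the first named group, blue lower, and dots mark a limma adjusted p under 0.05. Fibrillar genes carry 3 dots, all in DW against p21, and Col9a1, Col8a1 and Col28a1 are called in several comparisons.

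Between p21 and p28 under delayed weaning, limma called 3 of the 6 basement membrane genes higher in males, Col4a1, Col4a2 and Col4a4. Col4a4 was 4.24, 2.92, 0.493 and 1.64 at p21 and 3.98 to 4.97 in DW males, with overlap. Neither edgeR (adjusted p 0.112) nor DESeq2 (adjusted p 0.056) called it, and it kept its call in 6 of 17 other settings. Col4a1 was 729.8, 1039, 857 and 1123 at p21 and 1989.6, 2216, 1799 and 1940.1 in DW males, a rise of 1.10 (SE 0.24, limma adjusted p 0.00433) with every DW male above every p21 male. Col4a2 rose from 637, 889.5, 641 and 987 to 1549.7, 1791, 1376 and 1614, by 1.02 (SE 0.31, limma adjusted p 0.0319), also without overlap. Limma called 9 of the 43 higher and 0 lower, with 8.86% and 6.1% of all genes called. The largest rise was that of Col28a1, from 15.8, 11.9, 8.74 and 13.8 to 54.7, 40.9, 51.5 and 59.6, by 1.97 (SE 0.25, limma adjusted p 4.65e-05). Col6a5 rose from 2.20, 1.36, 1.34 and 0.955 to 4.84, 5.59, 4.21 and 4.51, by 1.25 (SE 0.21, limma adjusted p 0.000733). The others were Col11a1 (0.89), a fibrillar chain that joins type V collagen in non-cartilage fibrils, Col4a4 (0.86), Col18a1 (0.73), the source of endostatin, Col12a1 (0.58) and Col8a1 (0.50), with limma adjusted p from 0.0191 to 0.0480.

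Median differences in DW against p21 males were 0.69 for basement membrane, 0.33 for fibrillar and 0.22 for other collagens, with 0.023 over all genes. Without p21 male 53 only Col28a1, Col4a1 and Col6a5 were called, and with SW male 84 also left out the class medians were 0.37, 0.072 and 0.12. Without p21 male 54, 5 genes were called, and without DW male 79, 80, 86 or 87, 4, 4, 4 and 3. Col28a1, Col4a1 and Col6a5 were called in each of these fits, and Col4a2 was not called without p21 male 37 or 53 or DW male 79, 80 or 87. The endothelial markers, of which all 5 had reads in every library, summed to 1027 to 1218 in p21 males, 1156 to 1756 in SW males and 1663 to 1814 in DW males. Mural cell markers, 5 of 5 with reads, summed to 655 to 851, 849 to 1063 and 1045 to 1181. The 5 Schwann cell markers, set beside Col28a1, whose protein is known from peripheral nerve, summed to 327 to 562, 297 to 472 and 353 to 560.3. The skeletal muscle markers, whose range was widest, summed to 3.13 to 512 in p21 and 302 to 6346 in DW males, and with the tissue scores as covariates Col28a1, Col4a1 and Col6a5 were called. The part of the other cells in the rises was not tested.

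Col4a1 and Col4a2 lie head to head, and their RefSeq windows (GRCm38.p6), shown because both genes rose in DW males, share 78 bases. In the deposited coordinates the 2 genes overlap by 22 bases, and the strand setting of the counting is not given in the sources used here, so reads from that stretch could be assigned to either.
Col4a1, chr8:11312777-11313076 (minus strand): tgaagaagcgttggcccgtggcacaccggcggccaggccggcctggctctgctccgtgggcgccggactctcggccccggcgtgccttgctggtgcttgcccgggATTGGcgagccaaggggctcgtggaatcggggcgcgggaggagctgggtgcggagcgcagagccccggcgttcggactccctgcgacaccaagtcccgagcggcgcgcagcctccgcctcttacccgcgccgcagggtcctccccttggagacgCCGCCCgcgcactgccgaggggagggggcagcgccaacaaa
Col4a2, chr8:11312555-11312854 (plus strand): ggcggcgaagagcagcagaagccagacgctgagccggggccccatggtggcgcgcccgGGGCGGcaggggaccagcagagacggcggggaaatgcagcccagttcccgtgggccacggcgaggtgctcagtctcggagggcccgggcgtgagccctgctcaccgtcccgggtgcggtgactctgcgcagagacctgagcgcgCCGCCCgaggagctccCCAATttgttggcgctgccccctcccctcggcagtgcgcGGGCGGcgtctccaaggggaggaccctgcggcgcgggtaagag
The Col4a1 window held 1 CCAAT box and 1 GC box and the Col4a2 window 1 CCAAT box and 3 GC boxes, marked in capitals in either orientation. Their GC contents were 74.0% and 73.7%. The GC box of the Col4a1 window lies in the shared bases. It is the same site as the last GC box of the Col4a2 window, read on the other strand, and is counted in both windows.

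DW females differed from p21 females in 4 collagen genes, 2 higher and 2 lower, with 5.95% and 6.16% of all genes called. Col8a1 rose from 5.37, 8.15, 4.23 and 7.10 to 11.1, 12.7, 11.6 and 18.3, by 1.00 (SE 0.17, limma adjusted p 0.000615), and Col9a1 from 0.136, 0.348, 0.222 and 0.284 to 0.788, 0.931, 0.546 and 0.661, by 0.47 (SE 0.071, limma adjusted p 0.000254), both without overlap. The fibrillar Col27a1 was 26.7, 35.3, 38.7 and 39.3 at p21 and 29.8, 31.8, 16.1 and 13.0 in DW females, a difference of -0.68 (SE 0.20, limma adjusted p 0.0263), and Col24a1, another minor fibrillar chain, had a difference of -0.63 (SE 0.19, limma adjusted p 0.0293). Animals 82 and 83 were the lowest in both, and without them 5 genes were higher (Col8a1, Col9a1, Col9a2, Col18a1 and Col28a1) and 0 lower. Leaving out p21 female 36 or 55 or DW female 83 alone left 2 calls, Col8a1 and Col9a1. Class medians were -0.082, 0.24 and 0.038 for fibrillar, basement membrane and other genes with all animals, and 0.28, 0.54 and 0.31 without animals 82 and 83, against -0.0002 over all genes with all animals.

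Males and females were then compared within each age and regime. At p21 limma called 0 of the 43 collagen genes higher in females and 0 lower, with 0.331% and 0.025% of all genes called. At an unadjusted p under 0.05 there were 4 (8.6% of all genes), and edgeR and DESeq2 each called 1, Col9a1. Without p21 female 55 limma called Col4a6. Col9a1 had 17 to 37 reads in each p21 female and 0 to 6 in each p21 male, a difference of 0.29 (SE 0.071, limma adjusted p 0.0986). Col4a6 was 2.06, 2.85, 0.704 and 5.60 in p21 females and 0.0518, 0.564, 0 and 1.19 in p21 males.

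After standard weaning 7 collagen genes were higher in females and 0 lower, with 3.36% and 0.181% of all genes called, and in all 7 every SW female lay above every SW male. Col4a6 was 7.27, 3.23, 7.20 and 6.88 in females and 0.841, 0, 0.669 and 0.380 in males, a difference of 2.26 (SE 0.33, limma adjusted p 5.21e-05). Col9a2 was 0.554, 0.280, 0.290 and 0.396 in SW males, against the 2.56 to 3.52 of SW females, a difference of 1.53 (SE 0.17, limma adjusted p 1.13e-06). Col17a1 was 4.84, 3.30, 4.45 and 5.92 in females and 0.793, 1.16, 1.17 and 1.31 in males, a difference of 1.40 (SE 0.21, limma adjusted p 5.56e-05). Col9a1 differed by 1.06 (SE 0.071, limma adjusted p 6.72e-10) and Col9a3 by 1.07 (SE 0.12, limma adjusted p 1.20e-06). Col9a1 had only 4 to 18 reads in each SW male, with means of 1.24 in SW females and 0.0689 in SW males. Its difference ran from 0.78 to 4.21 under the other settings, so its size depends on the setting. Col7a1 differed by 1.09 and Col8a1 by 0.73, and Col7a1 was no longer called in 5 of the 8 fits without 1 animal (SW male 84 or 124, SW female 73, 75 or 81). Fibrillar, basement membrane and other medians were 0.071, 0.060 and 0.13, with 0.0069 over all genes.

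DW females and males differed in 5, 4 higher in females and 1 lower, with 1.89% and 0.569% of all genes called. Col4a6 was 6.88, 7.05, 3.46 and 5.33 in females and 0.141, 0.0900, 0.821 and 0.212 in males, a difference of 2.34 (SE 0.33, limma adjusted p 9.83e-05). The other 3 that were higher were Col9a1 (0.70), Col17a1 (0.82) and Col8a1 (0.74), with limma adjusted p from 1.88e-06 to 0.0351 and every female above every male. Col28a1 was 36.3, 40.6, 14.6 and 20.7 in females, against the 40.9 to 59.6 of DW males, a difference of -0.95 (SE 0.25, limma adjusted p 0.0372). Without animals 82 and 83 it was not called, and the 5 genes then called, all higher in females, were Col4a6, Col9a1, Col9a2, Col9a3 and Col17a1. Leaving out 1 animal gave 2 (without DW male 86) to 8 calls (without DW female 77), and 3 without DW male 79 or 87. Fibrillar, basement membrane and other medians were -0.27, -0.29 and -0.11 with all animals, and 0.079, -0.14 and 0.11 without 82 and 83, against -0.0089 over all genes with all animals.

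Markers of mammary epithelium, whose ducts grow into this fat pad in females, differed between the same groups. All 7 markers of that epithelium (keratins, Epcam and Csn3) had reads in every female. They summed to 40.7 to 156 in p21 females, 253 to 350.0 in SW females and 96.5 to 212 in DW females, and to 0.339 to 18.9, 1.25 to 40.3 and 1.23 to 10.8 in males of the same groups. In males 4 or 5 of the 7 were at 0 in at least 1 animal of each group. Col9a1, Col9a2 and Col9a3 were lower in DW than in SW females, and so was this list, whose score was 3.41 to 4.40 in DW and 4.68 to 5.19 in SW females. At p28 this score separates the sexes without overlap, so that a fit with it as a covariate cannot tell sex and epithelium apart. With the muscle, mammary and lymph node scores as covariates limma called 0 collagen genes between the sexes in SW and 0 in DW animals, and the differences between SW females and males ran from -0.19 for Col7a1, 0.0012 for Col4a6 and 0.47 for Col9a2 to 0.60 for Col8a1, 0.78 for Col9a1, 0.79 for Col17a1 and 0.89 for Col9a3. Of the cartilage and tendon list, 5 of 6 genes were in the table, and their sum was 8.02 to 11.3 in SW and 3.63 to 7.50 in DW females and 1.57 to 2.64 in SW males. Most of it was Sox9: SW females had Sox9 at 8.19 ± 1.46 and SW males at 0.788 ± 0.412, while Acan was 0.254 ± 0.131 and 0.173 ± 0.0641. Female minus male changes from p21 to p28 SW were 1.71 (Sox9), 0.14 (Scx), 0.12 (Acan), -0.24 (Tnmd) and -0.39 (Comp). The limma adjusted p was 0.00465 for Sox9 and from 0.601 to 0.907 for the others. The part of epithelium in the collagen differences was not tested.

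**Figure D5:**
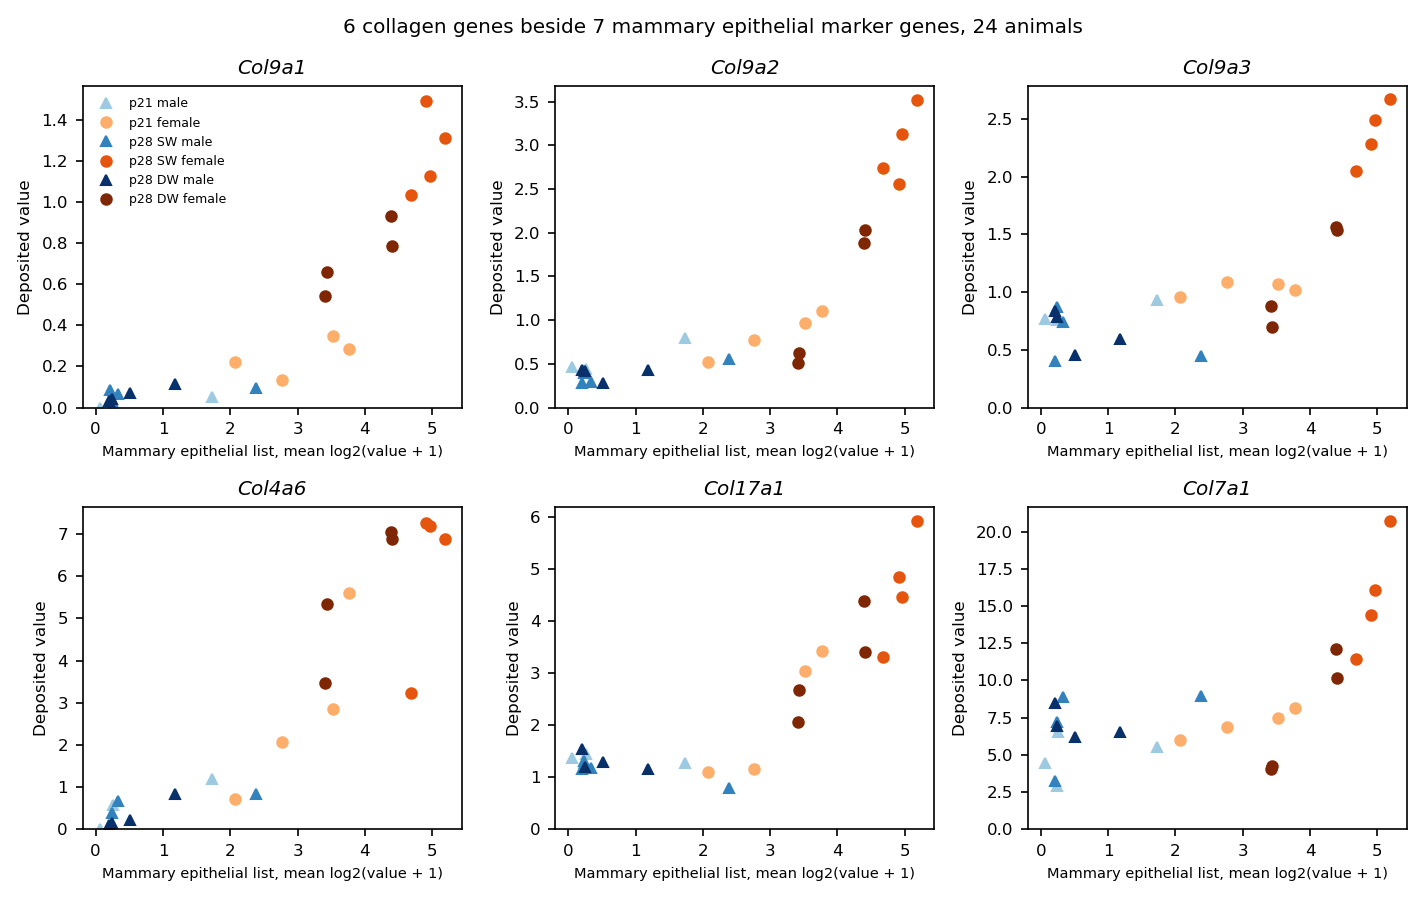
Deposited values of Col9a1, Col9a2, Col9a3, Col4a6, Col17a1 and Col7a1 (vertical axes) in 24 animals against the mean log2(value + 1) of 7 mammary epithelial markers (horizontal axis). Circles are females and triangles males. SW females, with marker scores of 4.68 to 5.19, are the highest in Col9a1, Col9a2 and Col9a3, and no male has a score above 2.38.

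The change from p21 to p28 SW differed between the sexes for the 3 type IX genes on the log2(value + 1) scale. Limma called 3 of the 43 with a larger rise in females and 0 with a smaller one, with 0.962% and 0.0687% of all genes called. The differences were 0.77 (SE 0.10, limma adjusted p 0.000124) for Col9a1, 1.27 (SE 0.24, limma adjusted p 0.00734) for Col9a2 and 0.90 (SE 0.17, limma adjusted p 0.00682) for Col9a3. In males Col9a2 was 0.427, 0.445, 0.462 and 0.797 at p21 and 0.554, 0.280, 0.290 and 0.396 at p28 SW, while in females it rose. Col9a1 had means of 0.0184 ± 0.0217 and 0.0689 ± 0.0280 in males and 0.247 ± 0.0904 and 1.24 ± 0.203 in females, so that it was low in males at both ages. EdgeR called 0 of these, a pseudocount of 0.1 gave 0, and DESeq2 called 2, Col9a2 and Col9a3. For Col9a1 the interaction was 0.55 with edgeR and 0.54 with DESeq2. The corresponding test for delayed weaning called 0 larger and 0 smaller, with 0.0437% and 0.025% of all genes called. It had 12 collagen genes at an unadjusted p under 0.05 (17% of all genes), edgeR called 0 and DESeq2 called 1.

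Across the 12 tests, limma called 17 of the 43 genes at least once, 3 of 11 fibrillar, 4 of 6 basement membrane and 10 of 26 others, and 26 in none. Of all tested genes, 30.4% were called at least once. Those never called include most of the abundant chains: Col1a1, Col1a2, Col3a1, Col5a1, Col5a2, Col5a3, Col6a1, Col6a2, Col6a3 and Col15a1. Over the 24 animals Col5a1, a main chain of type V collagen, ranged from 185 to 525, median 328, and its differences in the 9 comparisons between groups from -0.27 to 0.42. Col14a1, a fibril-associated collagen of dense connective tissue, ranged from 45.0 to 194, median 114, with differences from -0.036 to 0.42. Col6a6, another chain that can replace Col6a3, ranged from 18.1 to 59.4, median 29.5, and Col4a5, a type IV chain that pairs with Col4a6 in epithelial membranes, from 4.65 to 22.6, median 13.4. The Col4a5 differences ran from -0.019 to 0.78, and those of Col6a6 from -0.62 to 0.38. The transmembrane Col13a1 and Col23a1 were low, from 0.793 to 3.94, median 1.75, and from 1.28 to 6.47, median 5.32. Col2a1, Col10a1, Col22a1, Col25a1 and Col8a2 had 0 reads in at least 1 library and reached at most 1.12, the highest Col8a2 value.

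Genes that make or sense collagen were described beside the collagens. Of 28 genes for hydroxylation, folding, export and trimming of collagen, limma called 0 between DW and SW animals in either sex (all genes, 0.231% higher and 0.025% lower in males, 0.462% and 0.812% in females), with medians of 0.19 in males and 0.015 in females. In males 1 and in females 6 of the 28 had an unadjusted p under 0.05, against 6.94% and 18.9% of all genes. From p21 to p28, limma called 1 of the 28 in SW males, 2 in SW females, 2 in DW males and 0 in DW females. Of all genes, 6.9%, 7.39%, 8.86% and 5.95% were called higher in these comparisons and 4.97%, 4.23%, 6.1% and 6.16% lower. P4hb, a subunit of prolyl hydroxylase, fell in SW males, a difference of -0.39 (SE 0.098, limma adjusted p 0.0127). P4ha3, a catalytic subunit, and Adamts3, which trims procollagen, rose in SW females, by 0.89 and 0.52. In DW males Plod1, a lysyl hydroxylase, rose by 0.55 and Adamts2, another trimming enzyme, by 0.69, with limma adjusted p of 0.0332 and 0.0201. Of 7 collagen receptors, Itga1, the α subunit of an integrin that binds type IV collagen, was called in all 4 comparisons with p21: it rose by 0.43 in SW males, 0.58 in SW females, 0.54 in DW males and 0.53 in DW females, with limma adjusted p from 0.00469 to 0.0370. Those comparisons share the p21 animals of each sex. Itga2 rose in DW females by 0.45. Between the sexes P4ha3 and Adamts3 were higher in SW females, by 1.07 and 0.70, and Mia3, which helps load collagen for export, was lower in DW females, a difference of -0.44 (limma adjusted p 0.0438).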

How the data were processed

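Poly(A) RNA of the inguinal fat pad was sequenced in 24 mice, with 1 library an animal. The submitters' processing notes name fastp, HISAT2, featureCounts, DESeq2 1.38.3 and the build mm10, with no role given here. The deposited values are a signal: the authors' read counts per gene divided by 1 factor a library, whose method is not given in the sources used here. Whole reads were recovered from the steps between values (100% whole within 0.001). Groups follow the age, sex and group labels; the p21 titles read p28. Genes passed edgeR's filter at a minimum count of 10 (16005 of 16118). The log2(value + 1) values of all 6 groups were fitted together with limma 3.58.1 in R 4.3.3, with Benjamini-Hochberg adjustment over all genes tested; called means an adjusted p under 0.05. edgeR 4.0.16 and DESeq2 1.42.0 on the recovered reads, a pseudocount of 0.1, TMM scaling, no filter, tissue marker scores as covariates, only the groups compared, the range of animal numbers as a covariate (DW against SW), and each animal left out were tried, and the GC covariate and the fits without animals 53 and 84 or 82 and 83 were added after seeing the data. The fit was tested on simulated data: of 16005 genes drawn for DW against SW males, 200 were given a log2 change of 1, and 55.5% of these were recovered with limma. Any collagen gene could be named, with values in every animal for Col1a1, Col1a2, Col3a1, Col4a1, Col4a2, Col5a3, Col6a3 and Col15a1 and for the 3 largest called rises and falls of a comparison. The members and lists were chosen with earlier results of these data known.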

Additional observations from a re-analysis of the deposited data

Results flagged for a closer look

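Among 35 collagen genes with a mean value of at least 1, 9 of 210 groups of 4 animals held 1 animal far from the other 3, by a gap over the range above Dixon's 95% critical value. Chance gives about 1 in 20 groups, or 10.5 here. The values were 3.70 for Col11a1 in SW male 85, 524 for Col15a1 in p21 male 38, 5.61 for Col20a1 in DW male 86 and 491 for Col6a1 in SW female 81, each above its group. Col23a1 at 1.28 in p21 male 53 and Col4a6 at 3.23 in SW female 74 lay below. Col9a2 stood at 0.797 and Col9a3 at 0.930 in p21 male 54, above the other p21 males, and Col9a2 at 0.283 in DW male 87, below the other DW males. The change from p21 to p28 SW differed between the sexes, by an interaction term in limma, for Col9a1 (0.77), Col9a2 (1.27) and Col9a3 (0.90), each with the larger rise in females. EdgeR and a pseudocount of 0.1 called 0 of the 3.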

How the results depend on the processing

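Of 770 values of called collagen genes under other settings, 605 kept their direction and their call, 163 kept the direction without the call and 2 reversed. Both reversals came with tissue scores as covariates, Col4a6 from p21 to SW in females at -0.18 and Col7a1 between the sexes after SW at -0.19. Counts of called collagen genes that differed by more than 1.5 times were as follows, and the cause was not tested. The share of all genes called is not given here for these settings, nor for the same settings in the paragraphs above. The counts therefore cannot tell a change in collagen genes from a change in calls over all genes. With tissue scores there were 0 for DW against SW in females, 2 for SW against p21 in males, 3 in females, 3 for DW against p21 in males, 0 between the sexes after SW, 0 after DW and 1 for the sex by age term under SW. With only the groups compared there were 1 for DW against SW in males, 0 in females, 2 for SW against p21 in males and 2 between the sexes after DW. With the GC covariate there were 1 for DW against SW in males, 7 for DW against p21 in females and 9 between the sexes after DW. EdgeR, and likewise a pseudocount of 0.1, gave 0 for DW against SW in females, 1 between the sexes at p21 and 0 for the sex by age term under SW. DESeq2 gave 1 between the sexes at p21 and 1 for the sex by age term under DW. Without DW females 82 and 83 there were 0 for DW against SW in females. Without p21 male 53 and SW male 84 there were 2 for SW against p21 in males and 3 for DW against p21 in males. Leaving out 1 animal at a time gave 1 to 5 for DW against SW in females, 3 to 9 for DW against p21 in males, 2 to 5 in females, 0 to 1 between the sexes at p21, 2 to 8 between the sexes after DW, and 0 for DW against SW in males. No paired analysis was made, since animal numbers are not shared between groups. Dam and litter are not among the labels used here, so animals were treated as independent. Among the called genes depth limits Col9a1 most, with 1174 reads in all libraries and 0 to 18 in each male library. Col24a1 had 2793 reads, Col9a2 3154 and Col9a3 3378. Genes that were never called, such as Col2a1 with 174, had fewer.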

Other observations

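Type I collagen joins a pair of Col1a1 chains with 1 Col1a2 chain. The ratio of Col1a1 to Col1a2 transcript levels per kb was 3.07 to 3.50 in p21 males, 2.49 to 2.98 in SW males and 2.36 to 2.70 in DW males (lowest to highest of 4 animals). In females it was 2.95 to 3.21 at p21, 2.26 to 2.67 after SW and 1.23 to 2.74 after DW. The low end of the DW range was that of animals 82 and 83, both under every SW female, and animals 76 and 77 were at 2.65 and 2.74. These ratios were not tested. Their size depends on the exon lengths used, 6563 bases for Col1a1 and 12426 for Col1a2, so they cannot be read as a ratio of chains.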
